A study of Mus musculus with 6 samples.

Results

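Prostaglandins are lipid mediators made from arachidonic acid, and the genes described here encode the enzymes that make and break them down and 3 receptors for prostaglandin E2. The set was chosen by symbol and held 10 genes, namely Pla2g4a, Ptgs1, Ptgs2, Ptges, Ptgds, Ptgis, Hpgd, Ptger1, Ptger2 and Ptger4. Each gene was read from the array row (transcript cluster, roughly a gene) annotated with its symbol. Of the 10, 9 matched exactly 1 of the 22206 clusters tested, and Ptgs1, the constitutive cyclooxygenase gene, matched none of the named clusters and has no value here. RNA came from tubular epithelial cells freed by collagenase from mouse kidneys that were injured by ischemia for 30 min and then reperfused for 24 h. The PT2385 group (3 arrays) came from mice given PT2385, an inhibitor of the hypoxia-inducible factor HIF-2α, in doses of 10 mg/kg, the first 16 h ahead of surgery and the others 1, 8 and 20 h afterwards, and the vehicle group (3 arrays) from vehicle-treated mice with the same injury. The protocol names the compound PT2385 for the group and PT2384 for the injections, and the sample titles IRPT and IR were read as these 2 groups. The labels give no strain, age or sex and do not say whether each array is a separate animal, so the p-values rest on a spread between arrays that may be partly or wholly technical. Kidneys without ischemia were not analysed here.

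Cytosolic phospholipase A2 frees arachidonic acid from membranes, cyclooxygenases turn it into prostaglandin H2, and terminal synthases convert that into prostaglandins E2, D2 and prostacyclin. Prostaglandin E2 acts through 4 receptors, of which those encoded by Ptger2 and Ptger4 raise cyclic AMP, that of Ptger3 lowers it and that of Ptger1 signals through calcium. In the kidney, cyclooxygenase-2 is known from the macula densa, the thick ascending limb and medullary interstitial cells, and prostaglandin E2 affects blood flow, renin release and the handling of salt and water.

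Values are deposited log2 signals, so a difference of 1 is a 2-fold change. Array medians lay between 6.24 and 6.25 in the PT2385 group and at 6.20 in each array of the vehicle group. The rows that the array names as negative controls had array medians of 4.28 to 4.38 in the PT2385 group and 4.37 to 4.47 in the vehicle group, and their upper quartiles ran from 5.42 to 5.59. Proximal tubule markers averaged 10.5 to 11.5 in the PT2385 arrays and 10.8 to 11.2 in the vehicle arrays. The Y-linked gene Eif2s3y had 3.27, 3.04 and 3.34 in the PT2385 arrays and 9.09, 9.24 and 9.28 in the vehicle arrays. Uty and Kdm5d, the other Y-linked genes read, had the same split, and all 3 genes lay under the negative control medians in every PT2385 array (2.85 to 3.37) and above them in every vehicle array (6.34 to 9.28). For each difference below, treatment and a difference in the sex of the mice cannot be told apart.

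No prostaglandin gene passed the test between the treatments. With limma and Benjamini-Hochberg adjustment over all clusters, 0 of the 9 measured genes had an adjusted p under 0.05, where 0.829% of all clusters did. At an unadjusted p under 0.05 there were 3 of 9, namely Ptgs2 and Ptger4 with lower and Ptgds with higher values in the PT2385 group, where 14.5% of all clusters reached that level. An exact permutation test, which cannot give less than p = 0.1 with 3 arrays a group, gave 0 genes under 0.05. Without overlap between the treatments were 2 of 9 genes, against 20.7% of all clusters. These were Ptgs2 among those with lower PT2385 values (9.13% of all clusters) and Ptgds among those with higher ones (11.6%). The median difference (PT2385 minus vehicle) was 0.06 over the 9 genes, Ptger2 at background included, and 0.02 over all clusters. The median size of the difference, regardless of sign, was 0.23 over the 9 genes and 0.12 over all clusters.

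**Figure D1:**
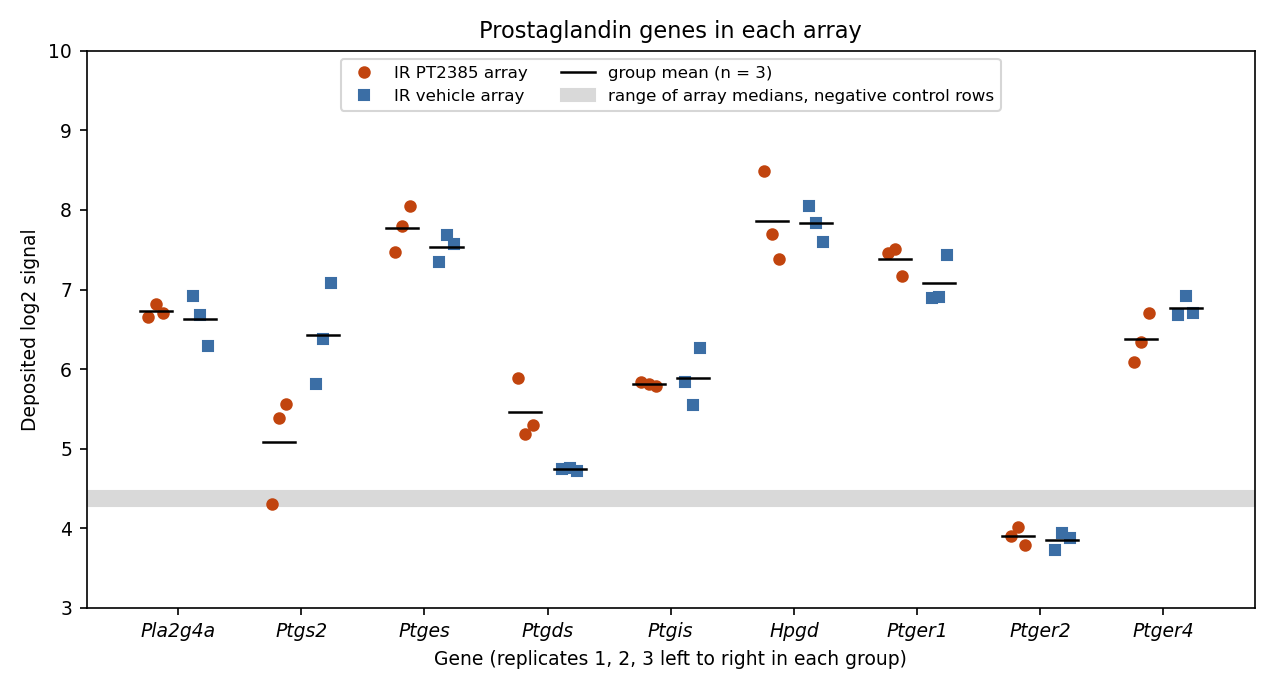
Deposited log2 signal (vertical axis) of the 9 measured prostaglandin genes in the 3 PT2385 arrays (circles, left) and the 3 vehicle arrays (squares, right), with group means as lines and the range of array medians of the negative control rows in grey. The groups are apart only for Ptgs2 and Ptgds, and Ptger2 lies below the grey band in all 6 arrays.

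At the first step, Pla2g4a, which encodes cytosolic phospholipase A2, had 6.66, 6.82 and 6.71 in the PT2385 arrays and 6.91, 6.67 and 6.29 in the vehicle arrays. The PT2385 values fell inside the range of the vehicle values. The difference was 0.10 (SE 0.15, 95% interval -0.25 to 0.45, limma adjusted p = 0.801), so changes of up to about that interval in either direction are not told apart from no change.

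Ptgs2, which encodes the inducible cyclooxygenase-2, had the largest difference of the 9 genes and also the largest spread. Its signal was 4.30, 5.39 and 5.56 in the PT2385 arrays and 5.81, 6.38 and 7.09 in the vehicle arrays. All PT2385 values lay below all vehicle values, with a gap of 0.25 between the nearest pair. The lowest value, 4.30, was under the median of the negative control rows on its own array (4.38), and none of the PT2385 values exceeded the highest upper quartile of those rows (5.59), whereas all 3 vehicle values did. The PT2385 mean was 5.08 ± 0.68 and the vehicle mean 6.43 ± 0.64 (SD, n = 3 each). The difference was -1.34 (SE 0.38, 95% interval -2.21 to -0.48) on the log2 scale, and no fold is given because the PT2385 values lay within the spread of the negative control rows. It did not pass (limma unadjusted p = 0.00688, adjusted p = 0.182). Values ranged over 1.26 within the PT2385 group and 1.27 within the vehicle group, and 99.5% of all clusters had a smaller spread within groups.

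Because the compound targets a HIF subunit, the stretch around the annotated start of Ptgs2 is shown with the letters of the HIF binding core in capitals, beside that of Ptgds, the other gene whose groups did not overlap. Each sequence runs 5′ to 3′ on the gene's strand, from 250 bases before the RefSeq start to 30 bases of transcript (build GRCm38.p6). Ptgs2 lies at chr1:150099781-150100060 on the plus strand and Ptgds at chr2:25469720-25469999 on the minus strand.
Ptgs2: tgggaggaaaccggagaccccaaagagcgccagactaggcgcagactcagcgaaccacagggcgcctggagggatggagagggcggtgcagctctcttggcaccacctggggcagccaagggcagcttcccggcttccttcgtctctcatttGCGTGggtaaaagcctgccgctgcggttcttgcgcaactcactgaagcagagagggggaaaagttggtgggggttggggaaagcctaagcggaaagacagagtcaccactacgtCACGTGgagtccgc
Ptgds: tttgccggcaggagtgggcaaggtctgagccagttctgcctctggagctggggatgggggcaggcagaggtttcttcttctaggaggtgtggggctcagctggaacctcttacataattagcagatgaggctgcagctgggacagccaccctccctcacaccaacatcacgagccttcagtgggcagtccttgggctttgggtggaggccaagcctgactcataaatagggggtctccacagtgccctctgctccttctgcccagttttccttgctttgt
The search took ACGTG or GCGTG on both strands. Ptgs2 held GCGTG at 98 bases before the start, and CACGTG from base 17 of the transcript, which contains ACGTG on both strands and is also the E-box. The cyclic AMP half-site TGACG stood on the minus strand from base 14, overlapping that E-box, and the C/EBP palindrome TTGCGCAA at 69 bases before the start. Ptgds held none of these letters in its window. Of the 10 genes, 8 had a window in the RefSeq table, 9 windows in all, and 4 windows held a HIF core (Pla2g4a, Ptgs2, Ptges and Hpgd). The same letters stood in 41.8% of all 32851 windows of this length, ACGTG alone in 18.5%, GCGTG in 30.8%, the E-box in 6.79%, the half-site in 19.9% and the palindrome in 0.18%. A match is a run of letters and no evidence of binding. Pla2g4a and Ptgs2 are neighbouring protein-coding genes on chromosome 1, and their differences were 0.10 and -1.34.

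The genes nearest to Ptgs2 in pattern were taken by the root mean square difference between values centred on each gene's own mean over the 6 arrays, among 17021 named genes. They were Sox9, a transcription factor gene of tubular repair (0.313), the adaptor gene Sh3bp2 (0.319), the cytokine gene Lif (0.338), the growth factor gene Fgf18 (0.347) and Csf3r, the receptor gene for granulocyte colony-stimulating factor (0.385), where the median of all candidates was 0.873. Sox9 had 5.96, 7.08 and 7.93 in the PT2385 arrays and 8.24, 8.54 and 8.89 in the vehicle arrays, a difference of -1.56 (SE 0.42, limma adjusted p = 0.162). Csf3r was the member of these 5 that passed, with a difference of -1.04 (SE 0.16, limma adjusted p = 0.0326), and its call was lost under 4 of 15 alternatives, without PT2385 replicate 2 (adjusted p = 0.15) and without vehicle replicates 1, 2 or 3 (adjusted p between 0.0971 and 0.116). For the other 3 the differences ran from -1.09 to -0.94. The pattern of Ptgs2 over the 6 arrays includes its gap between the treatments. Negative differences in these 5 genes therefore follow from how they were chosen, and their p-values are no separate evidence.

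Csf3r also stands in the list of neutrophil markers. Over the 6 measured genes of 7 in that list, the mean signal was 4.57, 4.95 and 5.45 in the PT2385 arrays and 5.55, 5.76 and 5.56 in the vehicle arrays. The nearest of these means were 5.45 in a PT2385 array and 5.55 in a vehicle array. Csf3r, which was named for its likeness to Ptgs2, is 1 of the 6 genes. Only Csf3r was left out, so whether the separation rests on it more than on another gene was not tested. Without Csf3r, a choice made after seeing the data, the means were 4.43, 4.81 and 5.37 in the PT2385 arrays and 5.37, 5.604 and 5.30 in the vehicle arrays, and the groups overlapped. The calprotectin gene S100a8 had 3.94, 4.62 and 5.54 in the PT2385 arrays and 6.49, 6.21 and 6.07 in the vehicle arrays. This was the largest difference of the list, at -1.56 (SE 0.34, limma adjusted p = 0.0972). The value 3.94 was under the negative control median of its array (4.38). None of the PT2385 values of S100a8 exceeded the highest upper quartile of the negative control rows (5.59). Of the 6 genes, Csf3r passed as lower, and S100a8, S100a9 and Csf3r had groups that did not overlap, 3 of 6 where 20.7% of all clusters had such groups. The other 3 overlapped, with the chemokine receptor gene Cxcr2 at -0.13 (limma adjusted p = 0.732), Retnlg at -0.24 (limma adjusted p = 0.784) with its lowest value in a vehicle array, and Mmp8 under the negative control medians in all 6 arrays. Macrophage and monocyte markers (7 of 8 measured) averaged 6.73 to 6.79 in the PT2385 arrays and 6.89 to 7.35 in the vehicle arrays. The lysozyme gene Lyz2 passed as lower at -1.19 (SE 0.16, limma adjusted p = 0.0202), where 0.495% of all clusters did. The chemokine receptor gene Ccr2 had -1.15 (SE 0.28, limma adjusted p = 0.127). Lyz2 and Ccr2 had groups that did not overlap, 2 of 7 where 20.7% of all clusters had such groups. The Ccr2 values in the PT2385 arrays, 5.15, 4.91 and 5.19, lay under the highest upper quartile of the negative control rows (5.59). The other 5 genes of that list overlapped, with differences from -0.09 to 0.23, and the median of all 7 was -0.05, with 3 positive and 4 negative. Without Lyz2 and Ccr2, again chosen after seeing the data, the means were 6.93, 7.06 and 6.96 in the PT2385 arrays and 7.11, 6.83 and 6.79 in the vehicle arrays and overlapped. As the genes left out were those without overlap, that choice favoured this outcome, and nothing is concluded from it. The part of either cell type in the Ptgs2 values was not tested, and in a bulk sample fewer cells of a type and less RNA per cell cannot be told apart.

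Markers of a segment known for cyclooxygenase-2 had the opposite order between the treatments, and so had markers of the distal convoluted tubule and collecting duct. Distal convoluted tubule markers (5 of 6 measured) averaged 7.98 to 8.95 in the PT2385 arrays and 7.35 to 7.78 in the vehicle arrays. Collecting duct intercalated cell markers (6 genes) averaged 8.56 to 8.86 and 8.19 to 8.31. In both lists 0 genes passed the threshold by limma. Groups without overlap were seen for 3 of the 5 and 5 of the 6 genes, where 20.7% of all clusters had them. At an unadjusted p under 0.05 by limma there were 4 of 5 and 3 of 6, where 14.5% of all clusters reached that level. The 8 markers of thick ascending limb and macula densa averaged 9.69, 9.33 and 9.05 in the PT2385 arrays and 8.47, 8.21 and 8.71 in the vehicle arrays. Of the 8, 2 passed as higher, where 0.333% of all clusters did. Groups without overlap were seen for 7 of the 8, where 20.7% of all clusters had them. Nos1, the macula densa nitric oxide synthase gene, had a difference of 0.11 (SE 0.13, limma adjusted p = 0.727). Its values, from 5.09 to 5.54, all lay under the highest upper quartile of the negative control rows (5.59), so Nos1 was dim on these arrays. Interstitial cell markers (8 of 9 measured) averaged 7.67 to 7.79 in the PT2385 arrays and 7.43 to 7.65 in the vehicle arrays, so these means had that order too. All 8 differences were positive, from 0.02 to 0.51. By limma 0 of the 8 passed the threshold and 2 had an unadjusted p under 0.05, where 14.5% of all clusters reached that level. Groups without overlap were seen for 1 of the 8, Lum, which was at or under the negative control median in all 6 arrays. The part of these segments and cells in the Ptgs2 values was not tested.

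**Figure D2:**
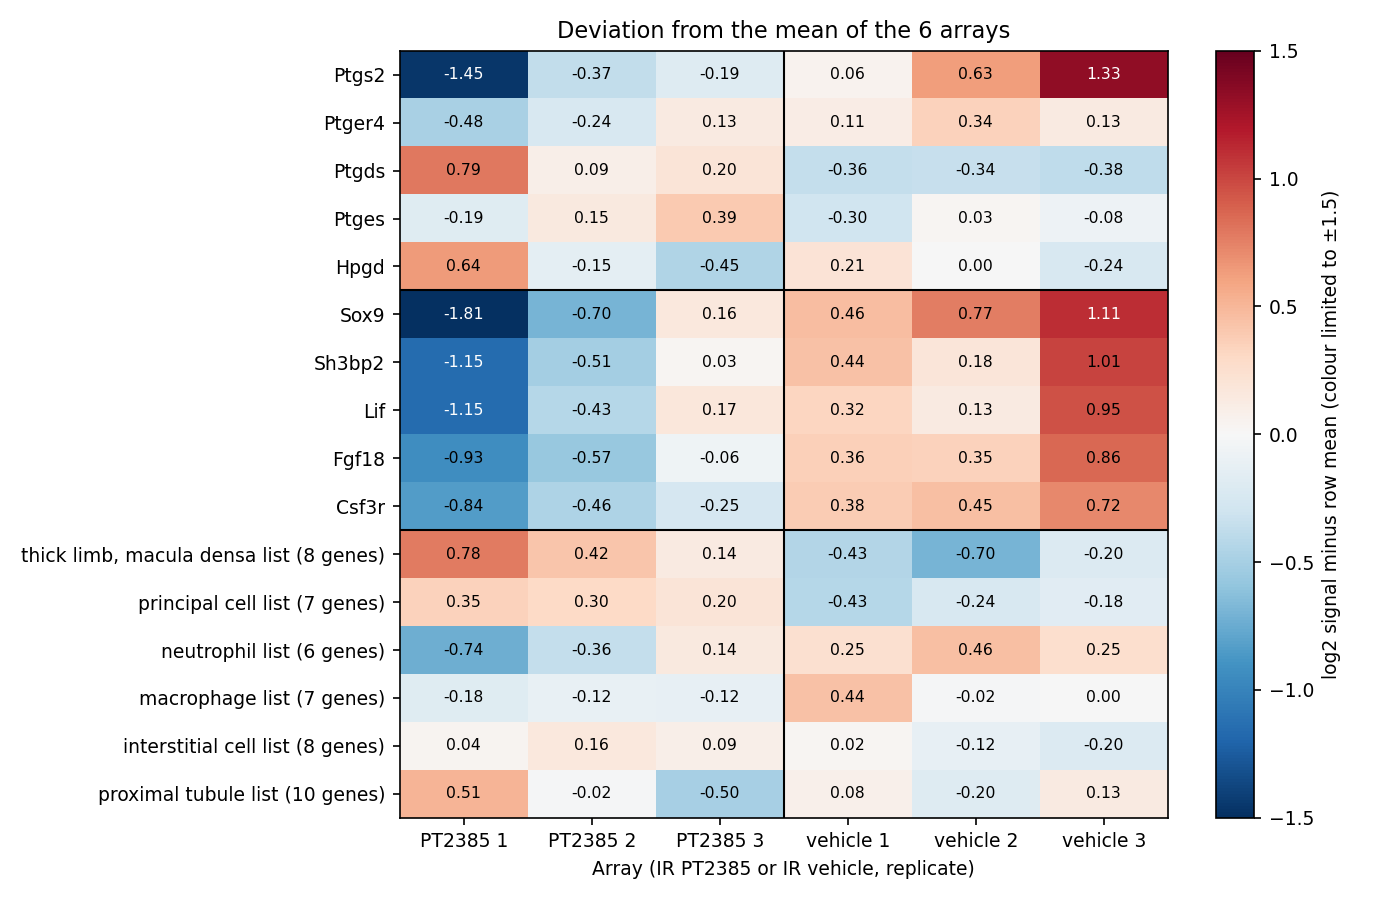
Deviation of each row from its mean over the 6 arrays (log2 signal, printed in the cells and coloured, colour limited to ±1.5) for 5 prostaglandin genes, the 5 genes nearest to Ptgs2 in pattern and 6 marker lists, with PT2385 arrays at left and vehicle arrays at right. Ptgs2 runs from -1.45 in PT2385 replicate 1 to 1.33 in vehicle replicate 3, the neutrophil list is at -0.74 and 0.25 in these arrays, and the thick limb and macula densa list at 0.78 and -0.20.

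Of the 3 terminal synthases in the set of prostaglandin genes, Ptgds had the clearest separation between the treatments. Ptgds, the lipocalin-type prostaglandin D synthase gene, had 5.89, 5.18 and 5.29 in the PT2385 arrays and 4.74, 4.76 and 4.72 in the vehicle arrays. The 3 vehicle values lay within 0.04 of each other, and the lowest PT2385 value stood 0.43 above the highest of them. The PT2385 mean was 5.46 ± 0.38 and the vehicle mean 4.74 ± 0.02 (SD, n = 3 each). The difference was 0.72 (SE 0.17, 95% interval 0.32 to 1.11), and it missed the threshold (limma unadjusted p = 0.00282, adjusted p = 0.128). With 5 of its 6 values inside the spread of the negative control rows (upper quartiles 5.42 to 5.59), Ptgds was a dim gene on these arrays and no fold is given.

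Ptges, which encodes microsomal prostaglandin E synthase-1, the partner enzyme of cyclooxygenase-2, had 7.47, 7.80 and 8.04 in the PT2385 arrays and 7.35, 7.68 and 7.58 in the vehicle arrays. The groups overlapped, and the difference was 0.23 (SE 0.16, 95% interval -0.13 to 0.59, limma adjusted p = 0.535). PT2385 replicate 3 had the highest Ptges value of the 6 arrays and also the highest Ptgs2 value of its group. Ptgis, the prostacyclin synthase gene, had 5.83, 5.81 and 5.78 in the PT2385 arrays and 5.83, 5.55 and 6.27 in the vehicle arrays. Its PT2385 values all fell inside the vehicle range, with a difference of -0.08 (SE 0.17, 95% interval -0.46 to 0.30, limma adjusted p = 0.869). Markers of endothelium, a known site of this enzyme, averaged 7.94 to 8.16 in the PT2385 arrays and 7.75 to 8.10 in the vehicle arrays, with 0 of 7 genes past the threshold by limma and 0 at an unadjusted p under 0.05.

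Hpgd, the dehydrogenase gene that starts prostaglandin breakdown, had 8.48, 7.69 and 7.39 in the PT2385 arrays and 8.05, 7.84 and 7.60 in the vehicle arrays. The PT2385 values reached both above and below the vehicle values. The difference was 0.02 (SE 0.26, 95% interval -0.56 to 0.61, limma adjusted p = 0.976), and 98.0% of all clusters had a smaller spread within groups. Without PT2385 replicate 1, the highest value, the difference became -0.29. Proximal tubule markers ran in the same order as Hpgd within the PT2385 group, at 11.5, 11.0 and 10.5 for replicates 1, 2 and 3. In the vehicle group they did not, at 11.1, 10.8 and 11.2, with the highest marker mean in replicate 3, the array lowest in Hpgd. Their part in the Hpgd values was not tested.

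Among the prostaglandin E2 receptors, Ptger4 had a lower and Ptger1 a higher mean in the PT2385 group, neither past the threshold. Ptger4, a receptor gene that raises cyclic AMP, had 6.09, 6.34 and 6.70 in the PT2385 arrays and 6.68, 6.91 and 6.71 in the vehicle arrays. The groups met at 1 pair of arrays, where PT2385 replicate 3 exceeded the lowest vehicle value. The difference was -0.39 (SE 0.16, 95% interval -0.75 to -0.03, limma unadjusted p = 0.0361, adjusted p = 0.309). Ptger4 and Ptgs2 were both lowest in PT2385 replicate 1.

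Ptger1, the receptor gene that signals through calcium, had 7.46, 7.51 and 7.18 in the PT2385 arrays and 6.90, 6.91 and 7.44 in the vehicle arrays. Vehicle replicate 3 lay inside the PT2385 range, and the difference was 0.30 (SE 0.17, 95% interval -0.08 to 0.68, limma adjusted p = 0.448). Ptger2, the other receptor gene that raises cyclic AMP, had 3.91, 4.01 and 3.79 in the PT2385 arrays and 3.72, 3.94 and 3.88 in the vehicle arrays. Every one of these 6 values was under the negative control median of its array, so Ptger2 was not above background and no fold is given.

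The fourth prostaglandin E2 receptor gene, Ptger3, is known from the thick ascending limb and collecting duct and is also 1 of the thick limb markers given above. It had 9.58, 8.88 and 8.80 in the PT2385 arrays and 8.07, 8.03 and 8.59 in the vehicle arrays, without overlap. The difference was 0.85 (SE 0.23, 95% interval 0.34 to 1.37, limma adjusted p = 0.158). Collecting duct principal cell markers (7 of 8 measured) averaged 8.72 to 8.87 in the PT2385 arrays and 8.09 to 8.34 in the vehicle arrays, with 0 genes past the threshold by limma. At an unadjusted p under 0.05 by limma there were 5 of the 7, where 14.5% of all clusters reached that level. Groups without overlap were seen for 6 of the 7, where 20.7% of all clusters had them. The part of these segments in the Ptger3 values was not tested.

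**Figure D3:**
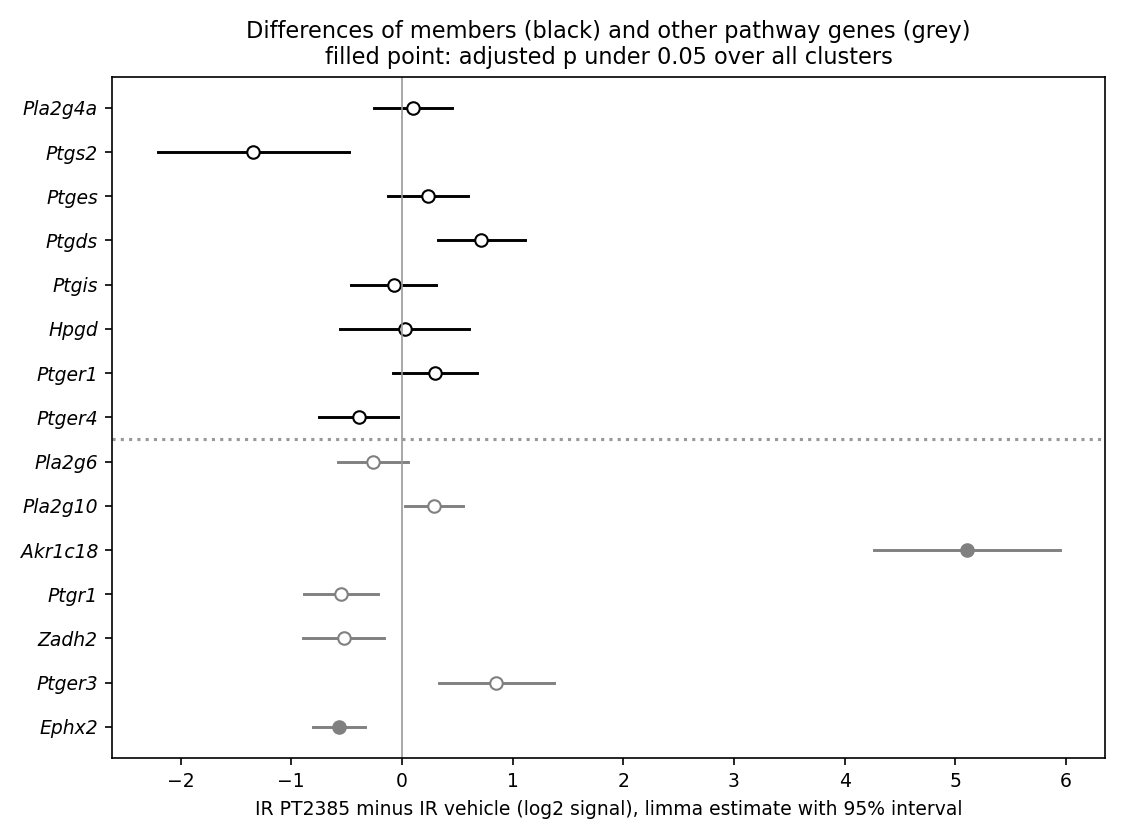
Difference between PT2385 and vehicle arrays (log2 signal, horizontal axis) with its 95% limma interval for 8 of the 9 measured prostaglandin genes (black, above the dotted line) and 7 other pathway genes (grey), leaving out Ptger2 and Ptgir, whose group means were both at background, and filled where the adjusted p over all clusters was under 0.05. The intervals of Ptgs2, Ptgds and Ptger4 leave out 0 among the prostaglandin genes, and Akr1c18 at 5.11 and Ephx2 at -0.57 are the filled points.

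Of 43 further genes of arachidonate and prostanoid metabolism, 41 were measured, and 1 rose and 1 fell past the threshold (0.333% of all clusters rose and 0.495% fell). The riser was Akr1c18, an aldo-keto reductase gene best known for progesterone breakdown, whose enzyme also has prostaglandin F synthase activity. Akr1c18 had 11.48, 10.41 and 9.93 in the PT2385 arrays and 4.999, 5.76 and 5.74 in the vehicle arrays, a difference of 5.11 (SE 0.37, limma adjusted p = 0.000484). The groups were 4.17 apart at their nearest values. The faller was Ephx2, the soluble epoxide hydrolase gene of the epoxide branch, with 10.18, 10.06 and 10.13 in the PT2385 arrays and 10.59, 10.66 and 10.83 in the vehicle arrays. Its difference was -0.57 (SE 0.10, limma adjusted p = 0.0497), and the call was lost under 11 of 16 alternatives, the omission of any 1 array among them, with adjusted p between 0.0186 and 0.24 over the 16.

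By role, 0 of 13 other genes of arachidonate release passed, with Pla2g10 at 0.29 (limma adjusted p = 0.30) and Pla2g6 at -0.26 (limma adjusted p = 0.432) having its smallest p-values. Pla2g10 was the 1 of 13 with a limma unadjusted p under 0.05 (0.0324, share of all clusters 14.5%). It was also the 1 of 13 without overlap (share of all clusters 20.7%). Its values lay under the highest upper quartile of the negative control rows (5.59) except in PT2385 replicate 1 (5.72), so Pla2g10 was dim. Of 7 other terminal synthases only Akr1c18 passed, and of 10 genes of the lipoxygenase and epoxide routes only Ephx2. In this last list 3 of 10 genes had an unadjusted p under 0.05 by limma, where 14.5% of all clusters did. Groups without overlap were also seen for 3 of 10, where 20.7% of all clusters had them. For both counts these were Ephx2, Ephx1 and Alox15, of which Alox15 was under the negative control median in all 6 arrays. Ephx1, the microsomal epoxide hydrolase gene, named after its values were seen, differed in the other direction from Ephx2 without passing. Ephx1 had 8.79, 8.69 and 8.87 in the PT2385 arrays and 8.13, 8.42 and 7.78 in the vehicle arrays, a difference of 0.68 (SE 0.16, limma unadjusted p = 0.00218, adjusted p = 0.114). Of 5 transport and breakdown genes 0 passed, by limma at the adjusted threshold. At an unadjusted p under 0.05 there were 2 of 5, where 14.5% of all clusters reached that level. The 2 were Ptgr1, a prostaglandin reductase gene acting after Hpgd, at -0.55 (SE 0.15, limma adjusted p = 0.158), and the related reductase gene Zadh2 at -0.53 (SE 0.16, limma adjusted p = 0.203). Both had groups without overlap, 2 of 5 where 20.7% of all clusters had them. Ptgr1 had 5.28, 4.73 and 4.80 in the PT2385 arrays and 5.53, 5.47 and 5.47 in the vehicle arrays, without overlap. Every one of these values lay under the highest upper quartile of the negative control rows (5.59), so Ptgr1 was dim on these arrays. It passed under array weights (adjusted p = 0.0348) and without PT2385 replicate 1 (adjusted p = 0.0238). Of 6 other prostanoid receptors 0 passed by limma and 1, Ptger3, had an unadjusted p under 0.05, where 14.5% of all clusters did. The prostacyclin receptor gene Ptgir had the next smallest p-value, with 4.13, 4.58 and 4.29 in the PT2385 arrays and 4.14, 4.13 and 4.12 in the vehicle arrays. As 4 of these 6 values, all vehicle values among them, were at or under the negative control median of their array, no difference is given for Ptgir. The other 5 receptor genes had differences from 0.06 to 0.85.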

How the data were processed

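The authors deposited 1 log2 signal per transcript cluster and array from Affymetrix whole-transcript arrays. Per the submitters' processing notes Transcriptome Analysis Console was used; for its version and for the summarisation, background and normalization steps nothing is stated in those sources, and the deposited log2 values were used unchanged. Of 28846 rows, 6640 control rows were left out and 22206 clusters tested without a filter. GEO's platform annotation named 19572 clusters with 1 symbol, 0 with several and left 2634 unnamed. The comparison used limma 3.58.1 (R 4.3.3; lmFit, eBayes, 2-sided, Benjamini-Hochberg over all clusters, threshold 0.05), and the fit was tested on simulated arrays. Differences are PT2385 minus vehicle.

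Every measured member was named. Of each pathway list the genes past the threshold were named, otherwise the 2 with the smallest p, plus Ptger3 and the 5 genes nearest to Ptgs2, leaving out predicted genes and chemosensory receptors. The members, lists and alternatives were chosen with earlier results of these data known. Only 3 arrays a group limit the precision. The most equal pair of arrays shared 0.234% of values, so none was a copy.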

Additional observations from a re-analysis of the deposited data

How the results depend on the processing

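The count of prostaglandin genes past the threshold was 0 under 15 of 16 refits and 1 with the replicate block, where Ptgs2 had -1.34 with adjusted p = 0.00702. The replicate numbers were not shown to pair the arrays, since deviations from the group means correlated at 0.138, 0.0252 and -0.0587 for numbers 1, 2 and 3 and only PT2385 replicate 1 correlated best with its own number. Over all its alternatives Ptgs2 kept a negative difference, from -1.65 to -0.95 when 1 array was left out, with adjusted p up to 0.383. The count of genes whose groups did not overlap was 0 with only clusters brighter than the median cluster, which drops both Ptgs2 and Ptgds, and 2 to 4 when 1 array was left out (4 without PT2385 replicate 3). Other pathway genes past the threshold numbered 1 with the replicate block, quantile normalization, cyclic loess, 1 cluster per gene or no X and Y chromosomes, and 1 to 2 when 1 array was left out; Ephx2 was the call lost. Calls over all clusters, 184 in all, were 456 with array weights (191 higher and 265 lower, against 74 and 110) and 42 to 179 without 1 array (42 without PT2385 replicate 2, and 81, 65 and 72 without vehicle replicates 1, 2 and 3). Hpgd changed sign with arrays centred on their medians (-0.0212) and with array weights (-0.11), and ran from -0.29 to 0.26 without 1 array. Without 1 array Pla2g4a ran from -0.0667 to 0.24, Ptgis from -0.24 to 0.12 and Ptger2 from -0.0065 to 0.11. The causes of these changes were not tested. No member had a second cluster, so that alternative was not run.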
